A study of Mus musculus with 60 samples.

Results

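The rest of the bait chromosome is mouse chromosome 15 outside a window of about 1 Mb on each side of the bait break and outside 2 hotspot intervals of 100 kb each, centred 12.9 Mb and 18.1 Mb above the bait (towards higher coordinates). All positions are in mm9. The members are all junctions there, taken by position, and they were chosen with earlier results of these data known. They were 38634 of 1219247 junctions, which was 3.17% of all junctions and 6.31% of the 612253 junctions outside the bait window. A library held 266 to 1701 of them.

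LAM-HTGTS, an assay that sequences translocation junctions, starts from 1 bait double-strand break and reads which other broken ends were joined to it. Joining partners on the same chromosome are in general favoured over those on other chromosomes, because loci of 1 chromosome meet more often in the nucleus. CH12F3 is a B lymphoma line of the mouse that can be induced to switch from IgM to IgA. In it AID (activation-induced deaminase) starts the breaks of class switching at immunoglobulin genes and, less often, at off-target genes. DNA ligase 4 (Lig4) seals ends in classical non-homologous end joining.

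The 60 libraries fell into 12 groups. All came from CH12F3 cells stimulated by TGF-β, anti-CD40 and IL-4 over 72 h, the controls included. The backgrounds were WT, WT with idelalisib (a PI3K delta inhibitor), AID-KO and Lig4-KO, and each was combined with DMSO, tazemetostat (an EZH2 inhibitor) or valemetostat (an inhibitor of EZH1 and EZH2). There were 5 libraries in each group except WT valemetostat (8), AID-KO tazemetostat (4) and AID-KO valemetostat (3). The labels used here give no doses, do not say how many clones the knockout lines stand for, and do not say whether replicates were separate cultures, so the p-values measure the spread between libraries, which may be technical.

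The Lig4-KO libraries held 35258 to 56900 junctions each, and the others held 7419 to 22089. The read names placed the libraries in 6 sequencing runs. One run held all Lig4-KO libraries. WT DMSO and WT tazemetostat shared a run, while WT valemetostat was in another, so that compound and run cannot be told apart for valemetostat in WT. The same holds for valemetostat with idelalisib, which was in another run than its DMSO and tazemetostat groups. Background and run cannot be told apart either, except between WT and WT with idelalisib under valemetostat, which shared a run.

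Junctions were denser on the rest of the bait chromosome than on the other autosomes in every library. Density is junctions per Mb, and the density ratio divides it by that of the other 18 autosomes without the immunoglobulin loci. Hotspot intervals were left out on chromosome 15 only, and hotspots on the other autosomes stayed in. The ratio ran from 1.27 to 2.21 with a median of 1.49, and it was above 1 in 60 of 60 libraries. Chromosome 15 ranked first among 19 autosomes in 44 libraries and never below rank 3. Chromosome 11 stood above it in 15 libraries, and chromosomes 12 and 16 in 1 each. In WT DMSO it ranked 2 in all 5 libraries, with a mean ratio of 1.34 where chromosome 11 had 1.44.

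The deposited lists treat the bait chromosome differently from the others, which touches every such ratio. On the other autosomes, 0 of 561076 junctions lay within 3 bases of a neighbour on the same strand in the same library, and the smallest gap was 4 bases. On the rest of the bait chromosome 447 of 38634 did (1.16%), 286 of them at the same position. Counting such neighbours 1 time on chromosome 15 removed 446 junctions, between 0.505% and 2.11% of a group's members. The median ratio then was 1.48, with a range from 1.26 to 2.19, still above 1 in 60 of 60 libraries, and chromosome 15 ranked first in 42. What the spacing removed from the other autosomes cannot be counted from these lists. Results whose call changes under this counting are named below.

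**Figure D1:**
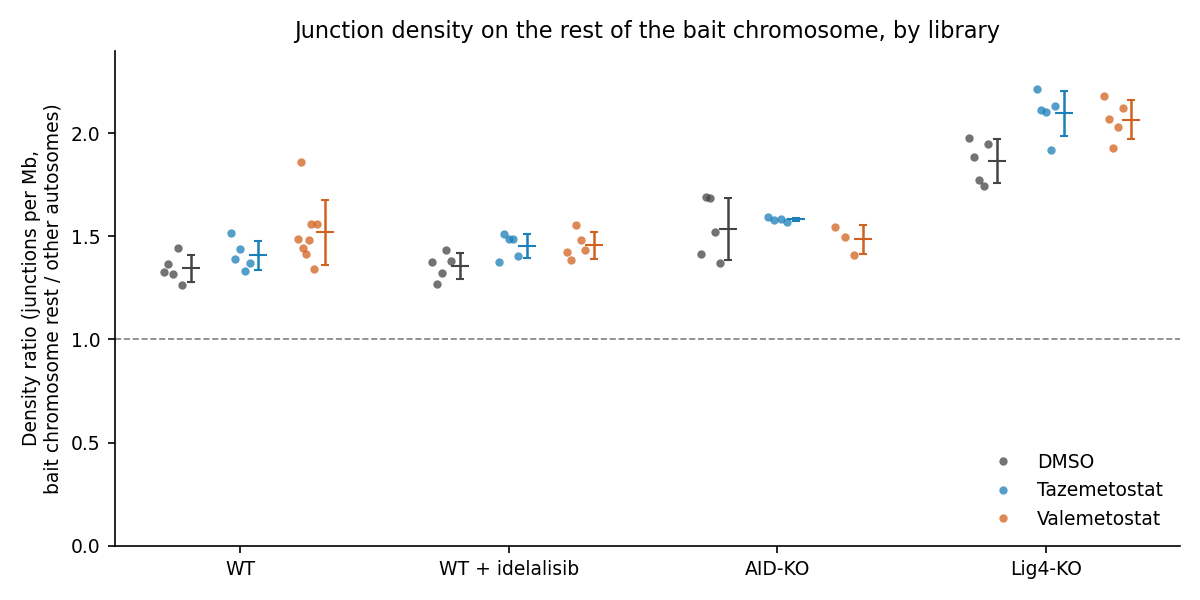
Density ratio of the rest of the bait chromosome to the other autosomes (y axis, no unit) for each of the 60 libraries, grouped by background and coloured by treatment. Points are libraries, bars are mean ± SD and the dashed line marks equal density. All libraries lie above 1, and the Lig4-KO groups lie highest, with means from 1.87 to 2.10.

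The excess was strongest close to the bait but did not fade steadily with distance. The median ratio over 60 libraries from 1 to 5 Mb was 2.53 (1.59 to 5.04). It was 1.28 (0.659 to 2.01) from 5 to 10 Mb, 1.35 (0.920 to 2.14) from 10 to 20 Mb and 1.48 (1.24 to 2.07) beyond 20 Mb. The ratio exceeded 1 in 60, 50, 57 and 60 libraries, and a sign-flip permutation test over libraries gave adjusted p = 1e-05 for each stretch, the smallest its 100000 draws can give. This test compares with the mean of the other autosomes, of which chromosome 11 alone had a mean ratio of 1.38. With neighbours within 3 bases counted 1 time the medians were 2.49, 1.28, 1.32 and 1.46. The step from 1 to 5 Mb down to 5 to 10 Mb was a fall in 60 of 60 libraries. The next step was a fall in 16, the step to beyond 20 Mb was a fall in 16, and only 1 library fell at all 3 steps.

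The sides of the bait differed. Below the bait (towards lower coordinates) the density was higher than above it in 58 of 60 libraries from 1 to 5 Mb and in 48 from 5 to 10 Mb. The order was turned farther out: above exceeded below in 55 libraries from 10 to 20 Mb and in 60 beyond 20 Mb. Of the members, 18703 lay above and 19931 below, and equal density would put 41.2% above. Close in, the mean ratio of WT DMSO was 2.87 from 1 to 2 Mb below and 1.97 from 1 to 2 Mb above. In Lig4-KO DMSO these were 5.25 and 3.19.

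Along the arm, density went up and down. In WT DMSO the mean ratio was 2.23 ± 0.409 (SD, n = 5) from 1 to 5 Mb below the bait and 1.75 from 1 to 5 Mb above it. It was 0.682 from 5 to 10 Mb above and 0.584 from 40 to 45 Mb below, so density there was under that of the other autosomes. The backgrounds differed at some of these stretches: from 5 to 10 Mb above, Lig4-KO DMSO had 1.37, and from 10 to 15 Mb below, WT DMSO had 0.718, AID-KO DMSO 1.31 and Lig4-KO DMSO 1.54. These differences by stretch were not tested. At the far end above the bait, more than 40 Mb away, it was 3.502 ± 0.785 over 1.67 Mb of sequence. AID-KO DMSO (3.40) and WT with idelalisib DMSO (3.95) were also high at that end, and Lig4-KO DMSO had 2.51 ± 0.566.

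**Figure D2:**
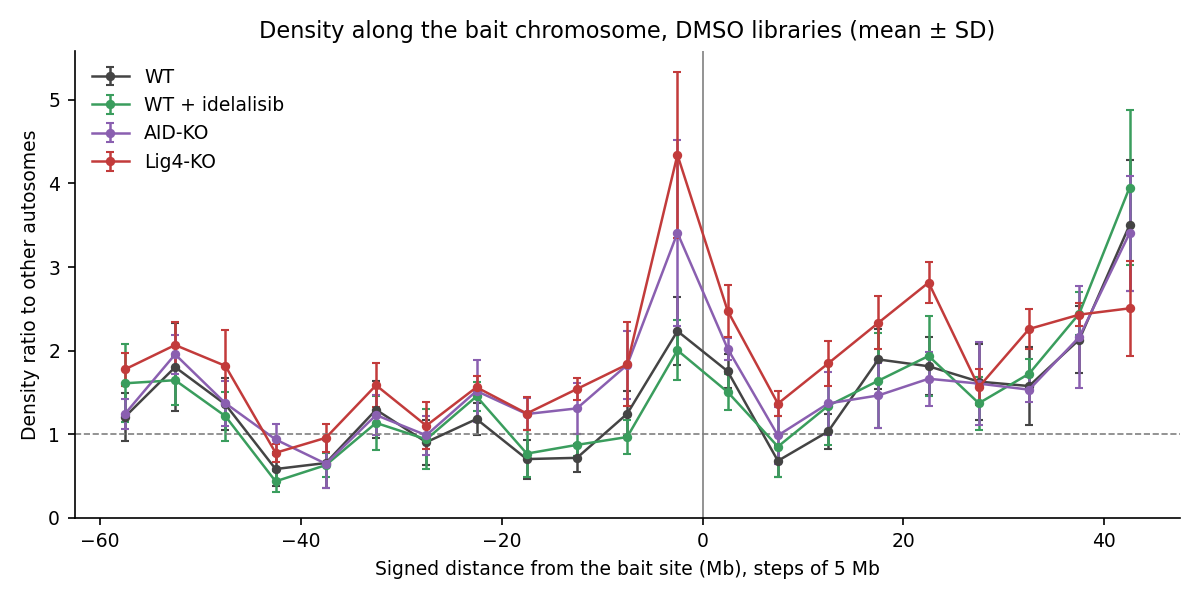
Mean density ratio to the other autosomes (y axis, no unit) in steps of 5 Mb by signed distance from the bait site in Mb (x axis, negative below the bait), for the DMSO libraries of 4 backgrounds, with SD bars over 5 libraries each. The step next to the bait on the lower side, which without the bait window runs from 1 to 5 Mb, is highest in Lig4-KO (4.34) and AID-KO (3.41). WT has 2.23 there.

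Both strands were seen at similar shares over all members, and the share was not tested against equality. Of the members, 19600 of 38634 were on the plus strand. By stretch, the pooled share on the plus strand was 53.2% from 1 to 5 Mb, 47.8% from 5 to 10 Mb, 51.3% from 10 to 20 Mb and 50.4% beyond 20 Mb. No comparison between groups passed the test for this share (8 compound and 3 background comparisons, exact permutation tests, adjusted p from 0.333 to 0.857).

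The rest of the bait chromosome was denser in Lig4-KO than in WT. Among junctions outside the bait window, the members made up 5.00%, 5.09%, 4.92%, 5.406% and 4.76% in the 5 WT DMSO libraries. They made up 7.26%, 6.97%, 6.52%, 6.50% and 7.15% in the 5 Lig4-KO DMSO libraries. The groups did not overlap, the means were 5.04% ± 0.241 and 6.88% ± 0.355 (SD, n = 5 each), and the difference was 1.85 points (95% interval 1.41 to 2.28, exact permutation test, adjusted p = 0.0119 over 3 background comparisons). The density ratio was 1.87 ± 0.105 against 1.34 ± 0.0666, a difference of 0.521 (0.377 to 0.649, exact permutation adjusted p = 0.0238). These calls stayed on the same side of the threshold when each of the 10 libraries was left out in turn.

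As a share of all junctions, the direction was the opposite in Lig4-KO. Of all junctions, the members were 3.40% ± 0.138 in WT DMSO. The figure for Lig4-KO DMSO was 2.70% ± 0.204 (SD, n = 5 each), a difference of -0.701 points (exact permutation test, adjusted p = 0.0238). Junctions inside the bait window are counted in this denominator and not in the first.

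The Lig4-KO difference was seen near the bait and far from it. At 1 to 5 Mb the ratio was 1.77, 1.96, 1.99, 2.38 and 1.87 in WT DMSO and 3.84, 3.68, 3.18, 2.71 and 3.64 in Lig4-KO DMSO. The groups did not overlap, with a difference of 1.41 (exact permutation adjusted p = 0.0238). With at most 3 junctions counted per 100 kb window and library it was 0.929 (exact permutation adjusted p = 0.0238). Beyond 20 Mb the ratio was 1.75 ± 0.0349 against 1.41 ± 0.115 (SD, n = 5 each), a difference of 0.340 (exact permutation adjusted p = 0.0238). The second call ended when every library was thinned to 7419 junctions, with a difference of 0.250 (exact permutation adjusted p = 0.143).

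Windows of 5 Mb located the difference between Lig4-KO and WT. Across the genome limma (voom) called 26 of 512 windows in DMSO (5.08%) at an adjusted p under 0.05. On the rest of the bait chromosome it called 8 of 21, all higher in Lig4-KO. By the rule of naming the 5 largest rises, these were 45000000 to 49999999 (log2 fold change 1.1 ± 0.263, SE), 70000000 to 74999999 (1.05 ± 0.207), 55000000 to 59999999 (0.88 ± 0.167), 50000000 to 54999999 (0.77 ± 0.198) and 60000000 to 64999999 (0.66 ± 0.160). Their adjusted p-values from limma ran from 0.000320 to 0.0116. They lie on both sides of the bait, and the window with the bait counts only junctions outside the bait window. With windows of 2 Mb limma called 4 of 51 on this chromosome (7.84%) and 25 of 1008 across the genome (2.48%).

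AID-KO libraries also held a larger share of members. The share was 5.56%, 6.55%, 6.55%, 5.94% and 5.415% in AID-KO DMSO. All 5 lay above the highest WT DMSO library, and the mean of 6.004% ± 0.536 exceeded that of WT by 0.969 points (0.325 to 1.63, exact permutation adjusted p = 0.0119). Junctions at the immunoglobulin loci are counted in this denominator but not in the density ratio, which was 1.54 ± 0.149 against 1.34 ± 0.0666, a difference of 0.191 (exact permutation adjusted p = 0.0476). That call for the ratio ended with neighbours within 3 bases counted 1 time (0.186, exact permutation adjusted p = 0.0714) and in 7 of the 10 fits that left out 1 library (0.152 to 0.232, adjusted p up to 0.119). The same call also ended with the hotspot intervals of chromosome 15 kept. Hotspots on the other autosomes, unlike those intervals, stayed in the ratio. As a share of all junctions, AID-KO and WT differed by 0.0958 points (exact permutation adjusted p = 0.651).

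In AID-KO a smaller percent of the members lay above the bait than in WT, though still more than equal density would put there (41.2%). The percent of members above the bait was 44.7 ± 1.70 in AID-KO DMSO and 50.3 ± 3.55 in WT DMSO (SD, n = 5 each), lower by 5.62 points (exact permutation adjusted p = 0.0476). From 1 to 5 Mb the ratio was 2.23, 3.51, 2.98, 2.71 and 2.14, with a mean 0.722 above WT (exact permutation adjusted p = 0.0357). That call ended without WT DMSO replicate 1, 2 or 5, and with at most 3 junctions counted per 100 kb window and library (0.633, exact permutation adjusted p = 0.0635). Beyond 20 Mb the difference was 0.0557 (interval -0.133 to 0.246, exact permutation adjusted p = 0.5). Of 21 windows of 5 Mb on this chromosome 0 were called by limma, where 4 of 488 (0.82%) were called across the genome, and 6 were higher and 1 lower at an unadjusted p under 0.05. The call for the side ended in 6 of 10 fits without 1 library (-6.78 to -4.61 points).

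Idelalisib alone left the share near that of WT. It was 5.06% ± 0.216 in WT with idelalisib DMSO, 0.0274 points above WT DMSO (interval -0.314 to 0.367, exact permutation adjusted p = 0.857). The 1 to 5 Mb ratio was lower: 1.70, 1.78, 1.71, 1.91 and 1.66, a mean of 1.75 ± 0.0977, below WT by 0.239 (exact permutation adjusted p = 0.0397). The ranges overlapped, and this call ended in 7 of 10 fits without 1 library. No window of 5 Mb was called, on this chromosome or across the genome (0% of 483). At an unadjusted p under 0.05, 0 of the 21 windows on this chromosome passed.

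In WT cells the share of members was higher with valemetostat than with DMSO. The 8 valemetostat libraries ran from 5.19% to 7.04% with a median of 5.74%, and the highest was replicate 2. All but the lowest exceeded the highest WT DMSO library. The mean was 5.85% ± 0.548 (SD, n = 8), above DMSO by 0.813 points (0.286 to 1.40, exact permutation adjusted p = 0.0435 over 8 compound comparisons). This call ended in 11 of the 13 fits that left out 1 library (0.642 to 0.906 points, adjusted p up to 0.0635) and held only without valemetostat replicate 2 or 7. As a share of all junctions the members were 4.01% ± 0.258 against 3.40% ± 0.138, without overlap (exact permutation adjusted p = 0.00622). The density ratio, which leaves out the immunoglobulin loci, was not called. It was 1.52 ± 0.157 against 1.34 ± 0.0666, a difference of 0.175 (0.0248 to 0.341, exact permutation adjusted p = 0.0635). Tazemetostat in WT gave 5.32% ± 0.232, 0.282 points above DMSO (exact permutation adjusted p = 0.138).

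The change with valemetostat in WT was largest close to the bait. Its ratio at 1 to 5 Mb ran from 2.15 to 5.04 with a median of 3.16, against 1.77 to 2.38 in DMSO. The means were 3.30 ± 0.966 (n = 8) and 1.99 ± 0.232 (n = 5), a difference of 1.31 (exact permutation adjusted p = 0.0423). The largest means stood from 1 to 2 Mb below the bait, 6.85 ± 3.62 (SD) with valemetostat and 2.87 ± 1.19 with DMSO. The valemetostat libraries ran from 4.10 to 14.9 there, and the DMSO libraries from 1.15 to 4.36. From 2 to 3 Mb below, the means were 5.71 ± 2.36 and 2.66 ± 0.900. Between 5 and 20 Mb the means went both ways and were not tested. With valemetostat and DMSO they were 1.27 and 0.682 from 5 to 10 Mb above, and 1.03 and 0.718 from 10 to 15 Mb below. From 15 to 20 Mb above they were 1.49 and 1.89. Beyond 20 Mb the difference between valemetostat and DMSO was 0.0289 (interval -0.154 to 0.212, exact permutation adjusted p = 0.897). The call from 1 to 5 Mb ended in 5 of 13 fits without 1 library, those without DMSO replicate 1, 2, 3 or 5 or valemetostat replicate 1. It also ended when a library counted at most 3 junctions per 100 kb window (1.11, exact permutation adjusted p = 0.0635).

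With idelalisib, the 1 to 5 Mb ratio was higher with both compounds. Tazemetostat gave 1.83, 2.43, 2.24, 2.43 and 2.23, above DMSO by 0.479 (exact permutation adjusted p = 0.0423). Valemetostat gave 2.16, 2.30, 2.77, 2.31 and 2.32, above DMSO by 0.617 (0.395 to 0.862, exact permutation adjusted p = 0.0423). The valemetostat libraries all lay above the DMSO libraries, whose highest was 1.91, and that call held without each library in turn. It ended when a library counted at most 3 junctions per 100 kb window (0.575, exact permutation adjusted p = 0.0635). The tazemetostat groups shared 1 run, and their call ended in 4 of 10 fits without 1 library. The shares outside the bait window were 5.42% ± 0.202 with tazemetostat and 5.40% ± 0.215 with valemetostat, both with exact permutation adjusted p = 0.0635 against DMSO. The valemetostat call is gained with neighbours within 3 bases counted 1 time (0.366 points, exact permutation adjusted p = 0.0476).

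WT valemetostat and WT with idelalisib valemetostat shared a run and can be set side by side without that difference. From 1 to 5 Mb WT was higher by 0.932 (exact permutation p = 0.0567), and the whole-chromosome ratio was higher by 0.0635 (exact permutation p = 0.483).

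In Lig4-KO, which had 1 run for all groups, both compounds gave higher values that missed the threshold. The share was 8.08%, 7.77%, 7.69%, 7.14% and 7.78% with tazemetostat and 7.98%, 7.62%, 7.20%, 7.51% and 7.84% with valemetostat. Against DMSO the differences were 0.812 and 0.752 points (intervals 0.251 to 1.28 and 0.242 to 1.29, exact permutation adjusted p = 0.0635 for both). They passed with neighbours within 3 bases counted 1 time (0.815 and 0.753, exact permutation adjusted p = 0.0476). With depth as a term they were 0.498 and 0.387 (permutation adjusted p = 0.0734 for both). As a share of all junctions the differences were 0.0383 and 0.0841 points (exact permutation adjusted p = 0.754 and 0.571). Beyond 20 Mb the ratio was 2.07, 2.04, 1.89, 1.88 and 2.02 with tazemetostat, all above the 5 DMSO libraries (1.70 to 1.78), with a difference of 0.233 (exact permutation adjusted p = 0.0635). Its unadjusted exact permutation p of 0.00794 was the smallest that 5 against 5 libraries can give. Such a p passes over 8 comparisons only where others are also low, so this miss is not a negative result. Without the densest 100 kb window, described below, that difference was 0.143 (exact permutation adjusted p = 0.0635). From 1 to 5 Mb the differences were 0.501 and 0.249 (exact permutation adjusted p = 0.292 and 0.476).

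In AID-KO neither compound passed. The share was 6.24%, 6.18%, 6.20% and 6.14% with tazemetostat, and 6.07%, 5.88% and 5.57% with valemetostat. Against DMSO the differences were 0.187 and -0.165 points (exact permutation adjusted p = 0.589 for both). Within the run that held all tazemetostat libraries and 4 of the DMSO libraries, the tazemetostat difference was 0.0399 points (exact permutation p = 1). The 1 DMSO library in the run of AID-KO valemetostat had 5.415%, which lies below all 3 valemetostat libraries, so the sign within that run was the opposite (0.424 points).

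Whether a compound changed the ratio differently in a background than in WT was tested directly. None of 6 interaction terms passed (Freedman-Lane permutation, adjusted p from 0.229 to 0.842). The largest were -0.225 for valemetostat in AID-KO and 0.166 for tazemetostat in Lig4-KO. A call in 1 background and none in another is therefore not shown to be a difference between backgrounds.

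**Figure D3:**
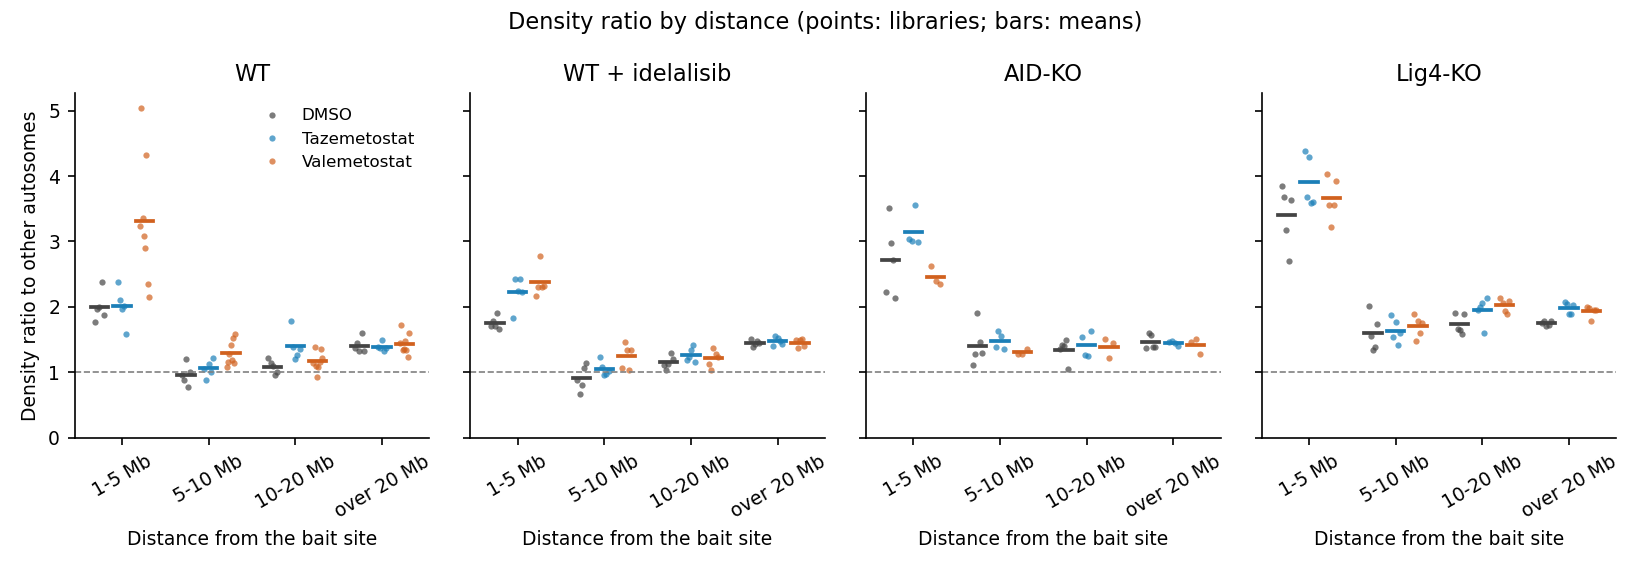
Density ratio to the other autosomes (y axis, no unit) in 4 stretches of distance from the bait site (x axis), 1 panel per background. Points are libraries and horizontal bars are group means. From 1 to 5 Mb the WT valemetostat libraries spread from 2.15 to 5.04, and beyond 20 Mb the groups outside Lig4-KO have means between 1.39 and 1.48.

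Tazemetostat and valemetostat were compared with each other in the 4 backgrounds. Valemetostat has the wider target range of the pair, since it inhibits EZH1 as well as EZH2. For the share outside the bait window, valemetostat minus tazemetostat was 0.530 points in WT, with a 95% interval from -0.000848 to 1.11. With idelalisib it was -0.0124 points (-0.318 to 0.293). In AID-KO it was -0.353 points (-0.666 to -0.0727), and in Lig4-KO -0.0603 points (-0.565 to 0.454). The exact permutation adjusted p-values over these 4 pairs were 0.101, 0.944, 0.101 and 0.944. For the density ratio the adjusted p-values ran from 0.114 to 0.952. As a share of all junctions, valemetostat was higher in WT by 0.449 points (exact permutation adjusted p = 0.0342). The pair was sequenced in different runs in WT, with idelalisib and in AID-KO, and the doses are not given in the labels, so a match of doses cannot be stated.

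Members were spread over 984 windows of 100 kb with a median of 32 junctions each. The 10 densest windows, ranked by their mean share over 60 libraries, held 2868 members (7.42%). Of the 10, 5 lay between 1 and 3 Mb of the bait and 5 lay more than 20 Mb away.

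The densest window was chr15:82000000-82099999, 20.2 Mb above the bait. It held 916 junctions from 52 libraries at 818 distinct positions, 47.2% on the plus strand. The central 90% of them fell between 82038920 and 82056407. Values below are junctions per 100000 outside the bait window.

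Few junctions lay in this window in AID-KO. The AID-KO DMSO libraries had 0, 0, 0, 14.2 and 0, and 8 of all 12 AID-KO libraries held none, where a count of 0 allows up to 3 junctions. The WT DMSO libraries had 44.0, 87.1, 29.5, 38.2 and 28.6, so the values of these 2 DMSO groups did not overlap. They rest on 1 junction in AID-KO DMSO and 16 in WT DMSO, and at these depths 3 junctions can reach the WT DMSO range. The highest AID-KO tazemetostat library had 42.4, which lies inside that range. The mean tally was too low for the limma test of AID-KO against WT. Lig4-KO DMSO had 119, 186, 211, 178 and 162, higher than WT DMSO (log2 fold change 1.83 ± 0.440, SE, limma adjusted p = 0.000738).

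With both compounds this window rose in Lig4-KO. Tazemetostat gave 399, 372, 374, 327 and 398, all above DMSO (log2 fold change 1.17 ± 0.152, limma adjusted p = 9.74e-12). Valemetostat gave 198, 390, 216, 245 and 323 (0.69 ± 0.184, limma adjusted p = 0.0305), and its lowest library lay within the range of DMSO. With idelalisib, valemetostat gave 156, 94.97, 144, 130 and 189 against 84.2, 27.8, 60.8, 82.4 and 94.26 in DMSO, a rise without overlap (1.13 ± 0.330, limma adjusted p = 0.0206). Tazemetostat with idelalisib gave 102, 108, 188, 127 and 193, also without overlap, and this rise was not called by limma.

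The same 100 kb carried the only 5 Mb window called for a compound. In Lig4-KO, limma called 80000000 to 84999999 with tazemetostat (log2 fold change 0.58 ± 0.105, adjusted p = 0.000225) and with valemetostat (0.43 ± 0.108, adjusted p = 0.0263), 1 of 21 windows each. Across the genome it called 3 of 523 (0.574%) and 2 of 524 (0.382%). Without the densest 100 kb window 0 of 21 were called for either compound, with 5 and 5 higher at an unadjusted p under 0.05. The valemetostat call also ended in 5 of 10 fits without 1 library. The 6 other compound comparisons called 0% of the windows across the genome, with 1 to 5 of 21 higher and 0 to 2 lower on this chromosome at an unadjusted p under 0.05. AID-KO valemetostat had 1 higher and 2 lower.

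**Figure D4:**
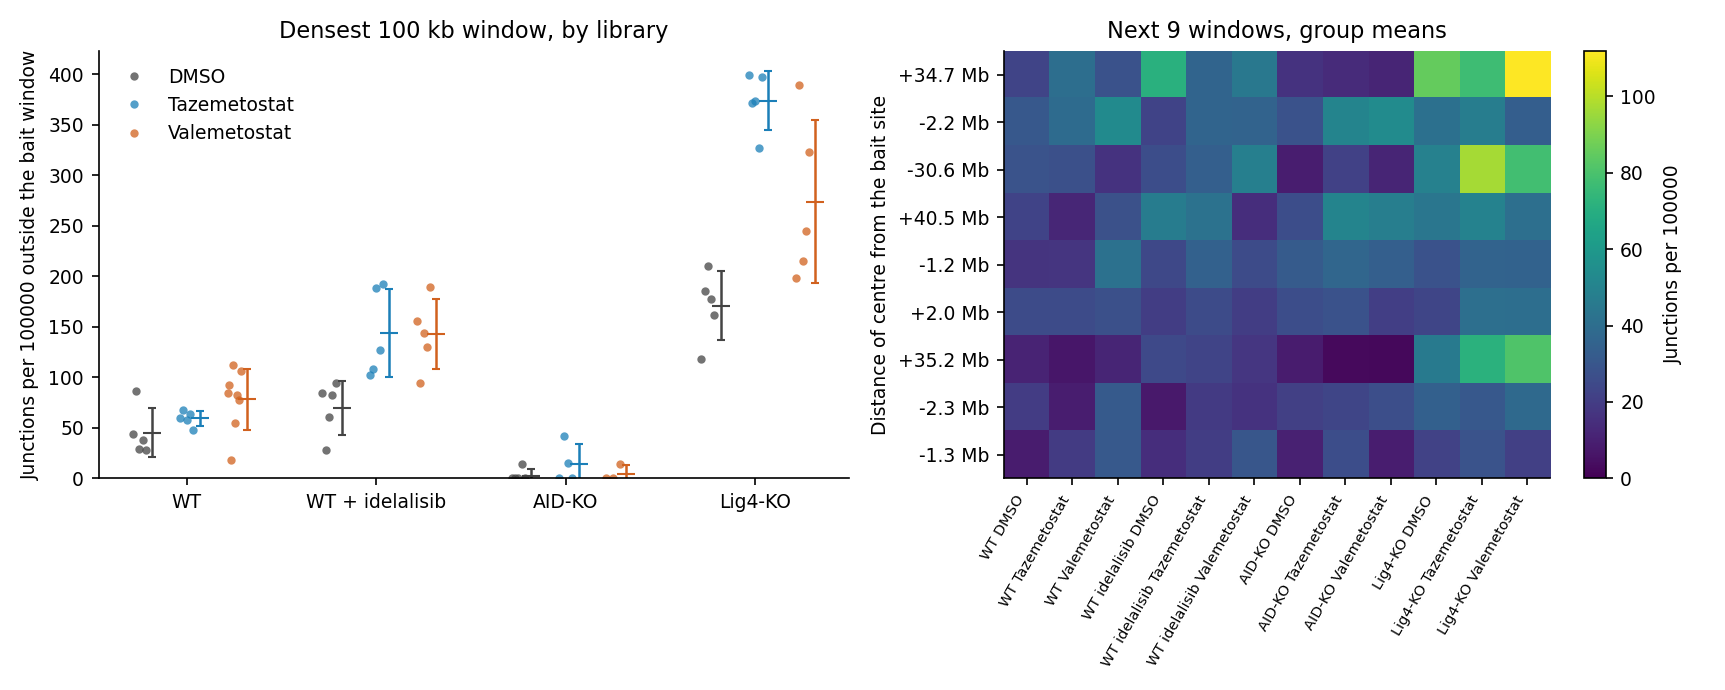
Left, junctions per 100000 outside the bait window (y axis) in the densest 100 kb window for each library, with mean ± SD bars by group. Right, group means on the same scale (colour) for the next 9 windows, named by the distance of their centre from the bait site. The AID-KO libraries lie between 0 and 42.4 and the Lig4-KO tazemetostat libraries between 327 and 399.

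At 100 kb the genome-wide shares of called windows were larger, and they are the measure for the counts on this chromosome. Lig4-KO against WT in DMSO called 6 of 33 windows on the bait chromosome, all higher, where 41.1% were called across the genome. Of the 168 windows tested across the genome, 61 were called higher and 8 lower. The mean tally was taken over both groups, so a window could pass through 1 group alone, here the deeper Lig4-KO libraries. Lig4-KO tazemetostat called 5 of 115 (6.65% across the genome), Lig4-KO valemetostat 1 of 141 (1.44%), WT with idelalisib valemetostat 1 of 8 (3.12%) and WT with idelalisib DMSO against WT 1 of 6 (17.6%). All 9 windows called across the genome in the last of these were higher with idelalisib. So the counts on the bait chromosome were no larger a share than across the genome in the 3 Lig4-KO comparisons, and rest on 1 window in the other pair.

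The second densest window, chr15:96500000-96599999, held 341 junctions from 56 libraries, 34.7 Mb above the bait. WT DMSO had a mean of 22.9 ± 8.45 and Lig4-KO DMSO 85.6 ± 25.2 (SD, n = 5 each), a log2 fold change of 1.58 ± 0.490 (limma adjusted p = 0.00646). WT with idelalisib DMSO had 71.1 ± 16.2, higher than WT DMSO (1.44 ± 0.450, limma adjusted p = 0.0269). The mean in AID-KO DMSO was 16.5 ± 20.05. The WT DMSO libraries held 8 junctions in this window, WT with idelalisib DMSO 29 and Lig4-KO DMSO 68. In both comparisons the window met the mean tally of 2 only through the higher group, so neither call can support a difference.

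Another window called in Lig4-KO lay close to it. In chr15:97000000-97099999, 35.2 Mb above the bait, Lig4-KO DMSO had 46.3 ± 10.2 and WT DMSO 10.95 ± 15.1 (log2 fold change 1.87 ± 0.484, limma adjusted p = 0.00171). Its 210 junctions were 31.9% on the plus strand. The WT DMSO libraries held 4 of them, with none in 3 libraries, and the Lig4-KO DMSO libraries held 37. This window met the mean tally of 2 only through the Lig4-KO libraries, so its call cannot support a difference. The window chr15:31200000-31299999, 30.6 Mb below the bait, rose with tazemetostat in Lig4-KO, from 49.1 ± 17.6 to 97.0 ± 24.7 (0.99 ± 0.278, limma adjusted p = 0.0113).

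The remaining windows had no call in these comparisons, and in some of them the tally was too low for a test. In WT valemetostat against DMSO, for example, limma tested 4 windows of 100 kb on this chromosome. A missing call there is not a negative result. Of those near the bait, chr15:59600000-59699999 had 247 junctions at 165 positions, 70.0% on the plus strand. The window chr15:102300000-102399999 had 229 junctions, and 153 of them (66.8%) lay at the single position 102395788 on the plus strand, seen in 42 libraries. With neighbours within 3 bases counted 1 time it kept 116 junctions and fell from rank 5 to rank 12, while the other 9 windows lost between 1 and 5 junctions each. Over all members, 26 positions recurred in at least 10 libraries and held 506 junctions (1.31%), against 0.839% on the other autosomes. These shares are not alike. Repeats of 1 position within a library are present among the members (286 junctions) and absent on the other autosomes (0 of 561076).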

How the data were processed

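Junction positions come from the authors' deposited lists, 1 headerless list per library, with 1 line per junction. The build is mm9 per the submitters' processing notes. The sources used here do not give an aligner or filters. The deposited lists also hold a score per line that was not used. On all chromosomes but 15, the deposited lists hold no 2 junctions of 1 strand within 3 bases. The lists were analysed as deposited, and the same spacing was applied to chromosome 15 as an alternative chosen after seeing the data.

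The members and lists were chosen with earlier results of these data known. Group means were compared with exact permutation tests (two-sided) and Benjamini-Hochberg adjustment within each set (8 compound, 3 background and 4 pair comparisons) at 0.05. The 95% intervals invert that test, and interactions are Freedman-Lane tests with 100000 draws. Window tallies were tested with limma 3.58.1 in R 4.3.3 (voom; library size is the junctions outside chromosome 15 and the immunoglobulin loci; mean tally at least 5 for 5 Mb and 2 for 100 kb, the latter added after seeing the data). Windows named are up to 5 called rises and falls per comparison, and the 10 densest 100 kb windows. Other steps used Python 3.11.15, numpy 2.4.6 and pandas 2.3.3. Tests were tried on simulated data. Alternatives were recounting, thinning, other windows, denominators and filters, a replicate block, a depth term, runs, and leaving out each library. Shares and limits of a count of 0 cover counting error only.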

Additional observations from a re-analysis of the deposited data

Results flagged for a closer look

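Some libraries stood apart from the others of their group: the gap to the nearest library took an unusually large part of the group's range. With 77 sets of libraries examined, chance alone marks about 1 in 20. No cause was tested.

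WT valemetostat replicate 2 had a share of 7.04% outside the bait window, where the other 7 had 5.19% to 5.99%, and a density ratio of 1.86, where the others had 1.34 to 1.56. WT with idelalisib valemetostat replicate 3 had a 1 to 5 Mb ratio of 2.77 (others 2.16 to 2.32) and 44.6% of its members above the bait (others 46.7% to 47.1%). AID-KO tazemetostat replicate 3 had a 1 to 5 Mb ratio of 3.55 (others 2.99 to 3.04). Lig4-KO valemetostat replicate 3 was low beyond 20 Mb, with a ratio of 1.78 (others 1.95 to 1.99).

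On strand, WT tazemetostat replicate 5 had 44.7% of its members on the plus strand (others 50.4% to 51.8%). WT with idelalisib tazemetostat replicate 4 had 53.2% (others 48.9% to 50.0%). As a share of all junctions, Lig4-KO tazemetostat replicate 2 had 2.89% (others 2.68% to 2.73%).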

How the results depend on the processing

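The Lig4-KO differences from WT in share, density ratio and 1 to 5 Mb ratio, and the AID-KO difference in share, kept their direction and their call under the alternatives tried, except with all junctions as denominator (values below). The other calls lie close to the threshold, and many ended or appeared under some setting. Where a call changed, the cause was not tested. Differences are signed, as the first group minus the second or compound minus DMSO. Settings that left out the densest window, capped or collapsed junctions, and 100 kb windows were chosen after seeing the data.

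The replicate numbers do not pair the samples: of 70 pairs of same-numbered libraries 1 had a correlation of deviations over 0.1 (r from -0.106 to 0.108). All counts of called 5 Mb windows are out of 21. With junctions within 3 bases counted 1 time, the share (points) was newly called at 0.366 for valemetostat in WT plus idelalisib, 0.815 for tazemetostat in Lig4-KO and 0.753 for valemetostat in Lig4-KO. For the density ratio, results were no longer called at 0.186 for AID-KO against WT. With identical lines counted 1 time, the share (points) was newly called at 0.367 for valemetostat in WT plus idelalisib, 0.813 for tazemetostat in Lig4-KO and 0.754 for valemetostat in Lig4-KO. Density ratios were no longer called at 0.189 for AID-KO against WT. The count of called 5 Mb windows was 2 for tazemetostat in Lig4-KO. With every library thinned to the smallest, the share (points) was no longer called at 0.746 for valemetostat in WT, and turned in sign at -0.204 for WT plus idelalisib against WT. The density ratio was turned in sign at -0.00321 for tazemetostat in AID-KO, -0.0496 for WT plus idelalisib against WT and -0.0111 for valemetostat against tazemetostat in WT plus idelalisib, and no longer called at 0.194 for AID-KO against WT. The 1 to 5 Mb ratio was no longer called at 0.583 for tazemetostat in WT plus idelalisib and -0.207 for WT plus idelalisib against WT, and turned in sign at 0.0422 for valemetostat in AID-KO. The ratio beyond 20 Mb was turned in sign at -0.00137 for valemetostat in WT and -0.0191 for WT plus idelalisib against WT, and no longer called at 0.25 for Lig4-KO against WT. The percent above the bait was turned in sign at 0.0684 for tazemetostat in WT plus idelalisib, 3.14 for tazemetostat in AID-KO, 1.81 for valemetostat in AID-KO and -0.805 for WT plus idelalisib against WT, and newly called at -4.04 for valemetostat in WT plus idelalisib, 5.19 for tazemetostat in Lig4-KO, 5.81 for valemetostat in Lig4-KO and -5.6 for Lig4-KO against WT. The percent on the plus strand was turned in sign at 0.214 for tazemetostat in WT plus idelalisib, -1.16 for tazemetostat in Lig4-KO and -1.19 for valemetostat in Lig4-KO. With the hotspot intervals kept, the share (points) was newly called at 0.374 for valemetostat in WT plus idelalisib, 1.09 for tazemetostat in Lig4-KO and 1.04 for valemetostat in Lig4-KO, and turned in sign at -0.0159 for WT plus idelalisib against WT and 0.0364 for valemetostat against tazemetostat in WT plus idelalisib. For the density ratio, results were no longer called at 0.128 for AID-KO against WT. With positions in 10 or more libraries left out, the share (points) was newly called at 0.393 for valemetostat in WT plus idelalisib, 0.807 for tazemetostat in Lig4-KO and 0.746 for valemetostat in Lig4-KO, and turned in sign at 0.0198 for valemetostat against tazemetostat in WT plus idelalisib. Density ratios were newly called at 0.18 for valemetostat in WT, 0.114 for valemetostat in WT plus idelalisib, 0.228 for tazemetostat in Lig4-KO and 0.199 for valemetostat in Lig4-KO. With 2 Mb on each side of the bait set aside, the share (points) was newly called at 0.788 for tazemetostat in Lig4-KO and 0.756 for valemetostat in Lig4-KO. The density ratio was turned in sign at -6.22e-05 for valemetostat against tazemetostat in WT plus idelalisib. With all junctions as denominator, the share (points) was turned in sign at -0.229 for tazemetostat in AID-KO, 0.486 for valemetostat in AID-KO, -0.701 for Lig4-KO against WT, 0.715 for valemetostat against tazemetostat in AID-KO and 0.0458 for valemetostat against tazemetostat in Lig4-KO, and no longer called at 0.0958 for AID-KO against WT, and newly called at 0.449 for valemetostat against tazemetostat in WT. With the median of the other autosomes, the density ratio was no longer called at 0.162 for AID-KO against WT. With the replicate block, the share (points) was no longer called at 0.89 for valemetostat in WT, and newly called at 0.812 for tazemetostat in Lig4-KO and 0.752 for valemetostat in Lig4-KO. For the density ratio, results were newly called at 0.23 for tazemetostat in Lig4-KO and 0.201 for valemetostat in Lig4-KO, and no longer called at 0.191 for AID-KO against WT. The 1 to 5 Mb ratio was no longer called at 1.53 for valemetostat in WT, 0.479 for tazemetostat in WT plus idelalisib, 0.617 for valemetostat in WT plus idelalisib, -0.239 for WT plus idelalisib against WT and 0.722 for AID-KO against WT. The ratio beyond 20 Mb was newly called at 0.233 for tazemetostat in Lig4-KO and 0.184 for valemetostat in Lig4-KO. The percent above the bait was no longer called at -5.62 for AID-KO against WT. The count of called 5 Mb windows was 2 for valemetostat in WT, 2 for tazemetostat in Lig4-KO and 1 for AID-KO against WT. With a depth term, the share (points) was no longer called at 0.844 for valemetostat in WT, and turned in sign at -0.235 for WT plus idelalisib against WT. Density ratios were turned in sign at -0.0604 for WT plus idelalisib against WT. Within run 5, the share (points) was turned in sign at 0.424 for valemetostat in AID-KO. The density ratio was turned in sign at 0.114 for valemetostat in AID-KO. The 1 to 5 Mb ratio was turned in sign at 0.316 for valemetostat in AID-KO. The ratio beyond 20 Mb was turned in sign at 0.0326 for valemetostat in AID-KO. With the densest 100 kb window left out, the share (points) was no longer called at 0.78 for valemetostat in WT, and turned in sign at 0.0394 for valemetostat against tazemetostat in Lig4-KO. The ratio beyond 20 Mb was turned in sign at -0.000557 for tazemetostat in WT plus idelalisib and -0.0276 for valemetostat in WT plus idelalisib. The count of called 5 Mb windows was 0 for tazemetostat in Lig4-KO and 0 for valemetostat in Lig4-KO. With at most 3 junctions per 100 kb, the density ratio was turned in sign at -0.00139 for WT plus idelalisib against WT, and no longer called at 0.182 for AID-KO against WT. The 1 to 5 Mb ratio was turned in sign at -0.0412 for tazemetostat in WT, and no longer called at 1.11 for valemetostat in WT, 0.421 for tazemetostat in WT plus idelalisib, 0.575 for valemetostat in WT plus idelalisib, -0.256 for WT plus idelalisib against WT and 0.633 for AID-KO against WT. The ratio beyond 20 Mb was turned in sign at -0.00526 for valemetostat in WT plus idelalisib. With 2 Mb windows, the count of called windows was 1 of 41 for valemetostat in WT (2 of 660 across the genome), 0 of 51 for valemetostat in Lig4-KO (3 of 1149) and 4 of 51 for Lig4-KO against WT (25 of 1008). With 1 Mb windows, it was 1 of 19 for valemetostat in WT (3 of 139 across the genome), 2 of 91 for tazemetostat in Lig4-KO (8 of 1411) and 0 of 95 for valemetostat in Lig4-KO (2 of 1486). With 100 kb windows, the count of called windows was 1 for valemetostat in WT plus idelalisib, 5 for tazemetostat in Lig4-KO and 1 for WT plus idelalisib against WT. With 100 kb windows, junctions within 3 bases counted 1 time, the count of called windows was 1 for valemetostat in WT plus idelalisib, 5 for tazemetostat in Lig4-KO and 1 for WT plus idelalisib against WT. With limma-trend, the count of called 5 Mb windows was 2 for tazemetostat in Lig4-KO and 0 for valemetostat in Lig4-KO. With all junctions outside the bait window as library size, the count of called 5 Mb windows was 2 for AID-KO against WT.

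Leaving out 1 library at a time gives fewer splits and a coarser p. The lowest and highest values follow for results whose call or sign changed in any such fit. For the share (points) these were 0.199 to 0.375 for tazemetostat in WT, 0.642 to 0.906 for valemetostat in WT, 0.26 to 0.404 for valemetostat in WT plus idelalisib, 0.714 to 0.95 for tazemetostat in Lig4-KO, -0.0421 to 0.12 for WT plus idelalisib against WT, -0.0938 to 0.0486 for valemetostat against tazemetostat in WT plus idelalisib and -0.198 to 0.0475 for valemetostat against tazemetostat in Lig4-KO. For the density ratio these were 0.0749 to 0.118 for valemetostat in WT plus idelalisib, -0.00769 to 0.0371 for WT plus idelalisib against WT, 0.152 to 0.232 for AID-KO against WT, -0.0216 to 0.0204 for valemetostat against tazemetostat in WT plus idelalisib and -0.0735 to 0.00511 for valemetostat against tazemetostat in Lig4-KO. For the 1 to 5 Mb ratio these were -0.0757 to 0.121 for tazemetostat in WT, 1.06 to 1.48 for valemetostat in WT, 0.429 to 0.579 for tazemetostat in WT plus idelalisib, -0.295 to -0.142 for WT plus idelalisib against WT and 0.522 to 0.866 for AID-KO against WT. For the ratio beyond 20 Mb these were -0.0425 to 0.0294 for tazemetostat in WT, -0.0111 to 0.0751 for valemetostat in WT, -0.0113 to 0.025 for valemetostat in WT plus idelalisib, -0.0415 to 0.0175 for tazemetostat in AID-KO, -0.091 to 0.0204 for valemetostat in AID-KO and 0.168 to 0.221 for valemetostat in Lig4-KO. For the percent above the bait these were -1.33 to 0.14 for tazemetostat in AID-KO, 3.0 to 4.24 for tazemetostat in Lig4-KO and -6.78 to -4.61 for AID-KO against WT. For the percent on the plus strand these were -0.19 to 1.61 for tazemetostat in WT, -1.54 to 0.156 for valemetostat in WT plus idelalisib, -0.0347 to 2.58 for valemetostat in AID-KO, -0.263 to 1.5 for tazemetostat in Lig4-KO, 1.84 to 3.51 for WT plus idelalisib against WT and -0.433 to 1.8 for Lig4-KO against WT. For the interaction these were -0.0584 to 0.0216 for tazemetostat, AID-KO and -0.00477 to 0.075 for valemetostat, Lig4-KO. For the count of called 5 Mb windows these were 0 to 1 for valemetostat in WT, 1 to 2 for tazemetostat in Lig4-KO, 0 to 1 for valemetostat in Lig4-KO and 0 to 1 for AID-KO against WT. The smallest library held 266 members in all, which limits the 1 to 5 Mb ratio.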
